A study of Oryza sativa with 16 samples.

Results

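The circadian clock genes of rice were followed across the 16 RNA-seq libraries of the series. The set was a fixed list of 10 clock genes, chosen by identifier: LHY, PRR1, PRR37, PRR73, PRR95, PRR59, GI, ELF3, LUX and FKF1. It was chosen with earlier results of these data known, so counts and sizes of members beside all genes are descriptions. A span was found in the deposited tables for 7 of these 10, among 30384 gene spans in all, 27588 of them with a gene identifier. LHY, PRR73 and GI had no span under the rule and were not analysed here. The symbols are those of the list, and the RefSeq table of Oryza sativa Japonica (assembly ASM3414082v1) holds a gene of the matching name on the same chromosome for 5 of the 7, namely PRR1, PRR37, PRR95, ELF3 and LUX (listed there as OsPCL1).

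The plant clock is a loop of proteins that switch each other off in turn through the day, and it has been worked out mostly in Arabidopsis. There, the dawn proteins of the LHY type repress evening genes. The PSEUDO-RESPONSE REGULATOR (PRR) proteins are made in waves from morning to evening and repress the dawn genes. The evening complex, which holds ELF3 and the DNA-binding protein LUX, represses PRR genes in the dark. Rice has relatives of these genes, and several of them are known as heading date (flowering time) genes. Because transcript levels of clock genes swing through the day, a library records the hour of harvest along with anything the genotype or treatment does. The hour of harvest is not given in the sources used here, so a difference in hour and a difference in the clock itself cannot be told apart between any of the groups.

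All plants were rice (Oryza sativa ssp. indica cv. Pusa Basmati 1), and each of the 8 groups had 2 libraries of poly(A) RNA. The seedling groups were h4.v KO with salt, h4.v KO without salt, WT with salt and WT without salt. The h4.v KO plants carry a CRISPR-Cas9 loss of function of H4.V, a rice variant of the core histone H4. Seedlings were 20 d old by their labels, after 5 days in darkness and 15 days in a growth chamber with 16 h of light and 8 h of dark. The methods of the study give a younger age for the RNA-seq seedlings than the labels do. Salt was 120 mM NaCl in the growth medium. The leaf groups were OE-H4.V, OE-H4, OE-H4.Vs and WT, from mature leaves of plants in a greenhouse with a natural day and night at about 28 °C. The study's methods give that temperature as the upper end of a range. The study lists the leaf plants as older than the seedlings. The OE plants overexpress H4.V, the canonical H4, or a chimera that joins the N-terminal part of H4.V to the C-terminal part of H4, each from the maize Ubiquitin promoter. The study describes these transgenes as carrying a FLAG tag at the N-terminus. The study's methods describe several h4.v mutations, of which a single type was analysed, so h4.v KO stands for 1 mutant allele. How many transgenic lines each OE group holds is not given in the sources used here. The replicates are described as biological, with 2 per group. Each test uses a spread pooled over all groups of its tissue and drawn toward that of other genes. It is thus not the spread of the groups compared only, and it reflects differences between these samples alone.

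Values are FPKM, which are fragment numbers divided by transcript length and by the mapped fragments of the library. Relative sequencing depth, derived from the Cufflinks confidence bounds, ran from 0.545 to 1.2 times that of WT seedling replicate 1. Loci assigned to a single gene span held 71.4% to 89.8% of the FPKM of a library, and loci reaching over a neighbouring gene were not counted. Replicates of a group differed by a median of 0.12 to 0.14 on the log2 scale in seedlings and 0.17 to 0.24 in leaves. The gene taken as H4.V by position alone was Os05g0462900 (chromosome 5, 22743760 to 22744188). It had 3369 and 3162 FPKM in OE-H4.V leaves. In the other 14 libraries the sum over loci assigned to this gene was 0. Such a 0 can also arise where an assembled locus lies mostly beyond the gene span. PRR1 was given 0 in OE-H4 leaf replicate 1 in this way, although its locus had 23.8 FPKM. Whether the H4.V gene had such loci was not tested, so its 0 values do not show that the transcript was absent. A 0 in every seedling library checks neither the h4.v KO label nor the WT label. Differences are given as log2 fold changes of FPKM + 1 with their standard errors (SE) from limma, with Benjamini-Hochberg adjustment over the 13935 genes tested in seedlings or the 11293 tested in leaves. A gene was called at an adjusted p under 0.05. Where groups are said not to overlap, the share of all genes with such a gap was not counted. In these bulk samples, fewer cells of a type and less RNA per cell cannot be told apart.

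Positions are given in IRGSP1.0 as the tables list them, with whole gene spans and no exon structure. The PRR genes were PRR1 (Os02g0618200, chromosome 2, 24569489 to 24572391), the rice relative of the Arabidopsis evening gene TOC1, PRR37 (Os07g0695100, chromosome 7, 29616705 to 29629215), a long-day repressor of flowering in rice, PRR95 (Os09g0532400, chromosome 9, 20885173 to 20889792) and PRR59 (Os11g0157600, chromosome 11, 2789011 to 2793728). The evening complex genes were ELF3 (Os06g0142600, chromosome 6, 2234581 to 2239058), known in rice as a promoter of heading, and LUX (Os01g0971800, chromosome 1, 42874273 to 42875515), a MYB-type DNA-binding protein. FKF1 (Os11g0547000, chromosome 11, 20182477 to 20187327) encodes an F-box blue-light receptor which in Arabidopsis acts with GI in the photoperiod pathway. In each tissue 6 of the 7 could be tested. PRR59 was left out of the seedling fit, since in WT seedling replicate 2 its locus also covered a neighbouring gene. PRR1 was left out of the leaf fit for the same reason, as in OE-H4 replicate 1 its locus of 23.8 FPKM reached over a neighbour. For these cases a fit with that library missing is given, and each is named as such.

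The question of the salt comparison was how WT seedlings respond to NaCl. PRR95 and PRR37 fell in WT seedlings with salt, and LUX and ELF3 rose. FKF1 fell by a smaller amount, and PRR1 was not called. These 5 of 6 members called, 2 higher and 3 lower, stand beside 50.8% of all genes called in the same comparison, 27.7% higher and 23.1% lower. Of these calls 54.5% were higher in the FPKM as deposited and 47.7% after scaling by the median of gene ratios. In size, the median absolute log2 fold change was 1.47 over the 6 members against 0.51 over all genes, and 3 of 6 members passed the cut-offs that the study names (a raw p under 0.05 with a log2 fold change beyond 1.5 either way), which 11.6% of all genes did.

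PRR95 had 3.44 and 3.66 FPKM in WT salt seedlings, against 19.5 and 24.3 FPKM in WT seedlings. Both salt libraries were far below both libraries without salt, and the log2 fold change was −2.32 (SE 0.15, limma adjusted p = 8.41e-05). Only 5.25% of genes had a difference at least as large in either direction. PRR37 had 2.71 and 2.64 FPKM in WT salt seedlings, against 19.9 and 12.2 FPKM in WT seedlings. The replicates without salt were further apart for this gene than for PRR95, yet the groups did not overlap (log2 fold change −2.17, SE 0.22, limma adjusted p = 0.000502). PRR59 had 16.1 and 16.4 FPKM in WT salt seedlings, against 26.2 FPKM in WT seedling replicate 1. In WT replicate 2 the value was 15.1 FPKM from the shared locus. With that library missing from the fit, the log2 fold change of PRR59 was −0.66 (SE 0.12, limma adjusted p = 0.00803), and it rests on a single WT library that is assumed to vary like the other groups. PRR1 had 18.3 and 14.2 FPKM in WT salt seedlings, against 18.0 and 20.7 FPKM in WT seedlings. These values are scaled by the share of the gene that the assembled locus covered. That share was 82.6% and 99.4% in WT salt, and 99.7% and 83.3% in WT seedlings. These groups overlapped (log2 fold change −0.25, SE 0.14, limma adjusted p = 0.183).

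LUX had 17.8 and 18.7 FPKM in WT salt seedlings, against 4.11 and 3.98 FPKM in WT seedlings. This was the member with the smallest adjusted p in the comparison, with replicates close together in each group (log2 fold change 1.93, SE 0.09, limma adjusted p = 2.6e-05). ELF3, its partner in the evening complex, had 21.6 and 20.5 FPKM in WT salt seedlings, against 10.1 and 9.93 FPKM in WT seedlings. The groups were again well apart (log2 fold change 1.01, SE 0.10, limma adjusted p = 0.00051), although 23.1% of all genes differed by at least as much. FKF1 had 3.32 and 3.24 FPKM in WT salt seedlings, against 4.51 and 5.57 FPKM in WT seedlings. Its log2 fold change was −0.49 (SE 0.12, limma adjusted p = 0.0152), a size that 51.8% of genes reached. The call for FKF1 was lost without WT replicate 2 (−0.36, limma adjusted p = 0.0682) and without WT salt replicate 2 (−0.48, limma adjusted p = 0.0567). FKF1 is the least precisely measured member in seedlings, since the Cufflinks interval reached 21.3% to 105% of the value on each side, against at most 26% for the other members.

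**Figure D1:**
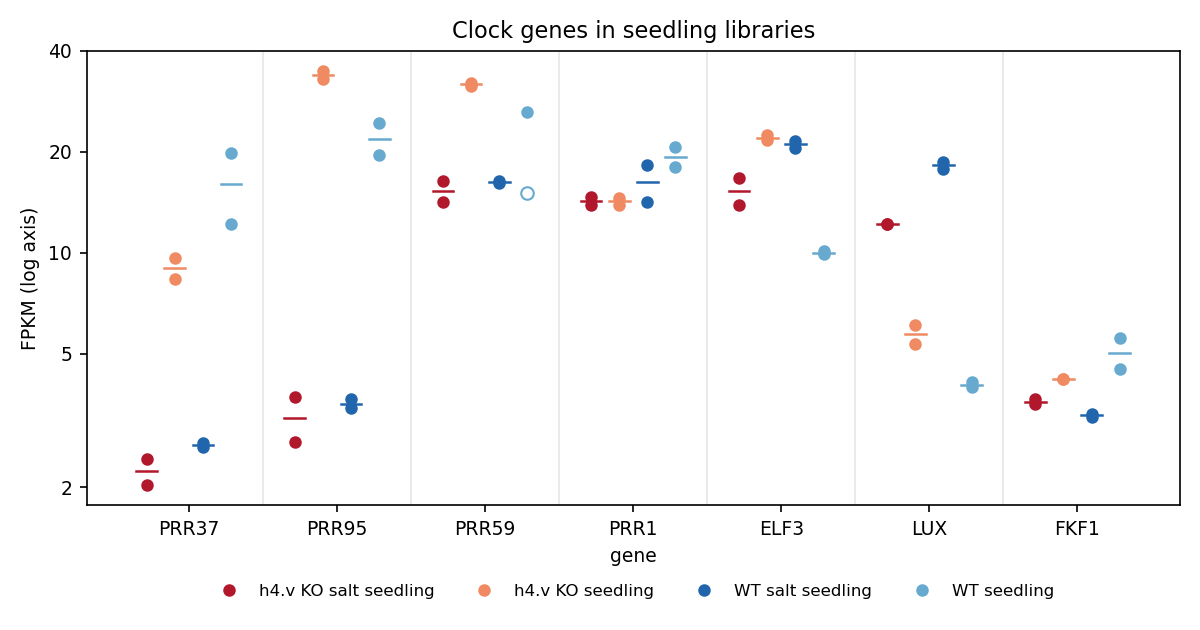
FPKM of the 7 clock genes in the 8 seedling libraries, with the genes along the x axis and FPKM on a log y axis. Each point is a library, the dash is the mean of the 2 libraries of a group, and the open circle marks PRR59 in WT replicate 2, where the locus covers a second gene. PRR95 and PRR37 are at most 3.72 FPKM in all 4 salt libraries, while LUX is at least 12.2 FPKM there and at most 6.09 FPKM without salt.

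In h4.v KO seedlings, PRR95 and PRR37 again fell with salt and LUX again rose, while ELF3 fell. The comparison shares no library with the salt comparison in WT. Of the 6 members 4 were called, 1 higher and 3 lower, beside 46% of all genes (19.1% higher and 26.9% lower). The median absolute log2 fold change was 0.74 over the members and 0.47 over all genes. PRR95 and PRR37, 2 of 6 members, passed the cut-offs of the study, which 8.67% of genes did.

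PRR95 had 2.74 and 3.72 FPKM in h4.v KO salt seedlings, against 32.9 and 34.7 FPKM in h4.v KO seedlings (log2 fold change −3.05, SE 0.15, limma adjusted p = 4.59e-05). This was the largest difference of any member in any of the 11 comparisons, and 1.61% of genes differed by as much. PRR37 had 2.43 and 2.04 FPKM in h4.v KO salt seedlings, against 8.35 and 9.67 FPKM in h4.v KO seedlings (log2 fold change −1.63, SE 0.22, limma adjusted p = 0.00201). These h4.v KO salt libraries were the lowest of all 16 for PRR37. PRR59 had 16.4 and 14.2 FPKM in h4.v KO salt seedlings, against 32.1 and 31.5 FPKM in h4.v KO seedlings. None of these 4 libraries had a shared locus, and the fit without WT replicate 2 gave a log2 fold change of −1.01 (SE 0.10, limma adjusted p = 0.00108).

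PRR1, in contrast to the other PRR genes, had 14.7 and 13.9 FPKM in h4.v KO salt seedlings, against 13.9 and 14.6 FPKM in h4.v KO seedlings. The groups overlapped almost wholly (log2 fold change 0, limma adjusted p = 0.99). The assembled locus covered 80.8% and 96.5% of the gene in h4.v KO salt, and 99.9% and 96.5% in h4.v KO seedlings. Without scaling by this share the log2 fold change was 0.15 (limma adjusted p = 0.666). LUX had 12.2 FPKM in both h4.v KO salt libraries, against 6.09 and 5.34 FPKM in h4.v KO seedlings (log2 fold change 0.98, SE 0.09, limma adjusted p = 0.000509). ELF3 had 16.7 and 13.9 FPKM in h4.v KO salt seedlings, against 21.7 and 22.4 FPKM in h4.v KO seedlings (log2 fold change −0.50, SE 0.10, limma adjusted p = 0.00995). The groups did not overlap for LUX or for ELF3, and their directions were opposite. FKF1 was not called, with 3.66 and 3.55 FPKM in h4.v KO salt seedlings, against 4.21 and 4.2 FPKM in h4.v KO seedlings (log2 fold change −0.18, limma adjusted p = 0.269).

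Without salt, h4.v KO seedlings were compared with WT seedlings to see what the loss of H4.V does at rest. ELF3 rose in h4.v KO, PRR95 and LUX rose by less, and PRR37 fell. That is 4 of 6 members called, 3 higher and 1 lower, beside 34.1% of all genes (20% higher and 14.1% lower). The median absolute log2 fold change was 0.51 over the members and 0.36 over all genes, and 0 members passed the cut-offs of the study, which 5.96% of genes did. ELF3 had 21.7 and 22.4 FPKM in h4.v KO seedlings, against 10.1 and 9.93 FPKM in WT seedlings. Its log2 fold change of 1.07 (SE 0.10, limma adjusted p = 0.000746) stayed between 0.93 and 1.13 in every alternative and was past the adjusted p threshold in each.

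The other calls of this comparison were less secure. PRR95 had 32.9 and 34.7 FPKM in h4.v KO seedlings, against 19.5 and 24.3 FPKM in WT seedlings (log2 fold change 0.61, SE 0.15, limma adjusted p = 0.027). LUX had 6.09 and 5.34 FPKM in h4.v KO seedlings, against 4.11 and 3.98 FPKM in WT seedlings (log2 fold change 0.41, SE 0.09, limma adjusted p = 0.02). PRR37 had 8.35 and 9.67 FPKM in h4.v KO seedlings, against 19.9 and 12.2 FPKM in WT seedlings (log2 fold change −0.73, SE 0.22, limma adjusted p = 0.0496). In these 3 genes the groups did not overlap, a description that adds nothing to the calls. When the libraries were scaled by the median of gene ratios, the median log2 fold change of all genes moved by −0.123, and the share of calls that were higher in h4.v KO was 58.6% in the FPKM as deposited and 43.1% after scaling. Under that scaling PRR95 (0.47, limma adjusted p = 0.0659) and LUX (0.29, limma adjusted p = 0.0642) were no longer called, and PRR1 was (−0.55, limma adjusted p = 0.0255).

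Leaving out 1 library also decided several of these calls. PRR95 was not called without h4.v KO replicate 1 (0.65, limma adjusted p = 0.0842), h4.v KO replicate 2 (0.57, limma adjusted p = 0.11) or WT replicate 1 (0.46, limma adjusted p = 0.121). LUX was not called without h4.v KO replicate 1 (0.33, limma adjusted p = 0.086), WT replicate 1 (0.43, limma adjusted p = 0.065) or WT replicate 2 (0.39, limma adjusted p = 0.0817). PRR37 lost its call in 14 of 19 alternatives, with log2 fold changes between −1.07 and −0.33. Without WT replicate 1, its highest seedling library, it was −0.40 (limma adjusted p = 0.133). PRR37 was called without WT replicate 2 alone among the 8 fits that leave out a library.

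PRR1 was not called between h4.v KO and WT seedlings, with 13.9 and 14.6 FPKM in h4.v KO, against 18.0 and 20.7 FPKM in WT. The h4.v KO libraries were both lower (log2 fold change −0.41, SE 0.14, limma adjusted p = 0.0613), and the gene was called without WT salt replicate 1 (−0.41, limma adjusted p = 0.0336) or replicate 2 (−0.41, limma adjusted p = 0.0333). FKF1 had 4.21 and 4.2 FPKM in h4.v KO seedlings, against 4.51 and 5.57 FPKM in WT seedlings (log2 fold change −0.21, limma adjusted p = 0.229). PRR59 had 32.1 and 31.5 FPKM in h4.v KO seedlings, against 26.2 FPKM in WT replicate 1, and with the shared-locus library missing it was not called (log2 fold change 0.27, SE 0.12, limma adjusted p = 0.151).

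**Figure D2:**
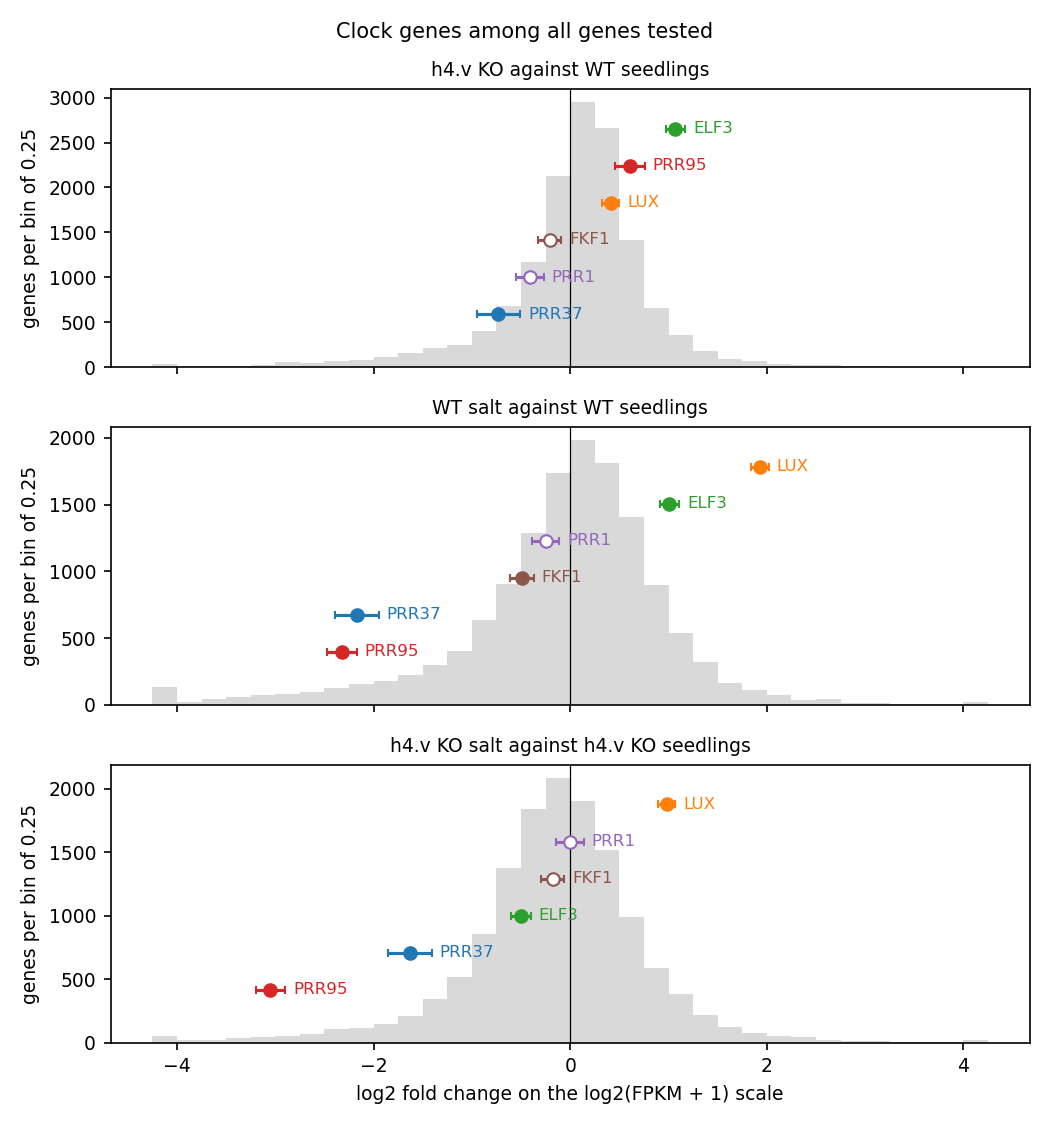
Log2 fold changes of FPKM + 1 for the clock genes in 3 seedling comparisons, drawn over the distribution of all genes tested. The panels are h4.v KO against WT, WT salt against WT and h4.v KO salt against h4.v KO, and the y axis counts genes per bin. Points are members at heights that carry no value, error bars are the standard error, filled points are called at an adjusted p under 0.05, and the end bars of each distribution gather genes below −4 or above 4. PRR95 reaches −3.05 with salt in h4.v KO and −2.32 with salt in WT, and LUX reaches 1.93 with salt in WT.

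Under salt the genotypes were compared again. In h4.v KO salt seedlings against WT salt seedlings 0 of 6 members were called by limma, where 2.38% of all genes were. At an unadjusted p under 0.05 there were 2 members, and 18.8% of all genes. These were LUX, with 12.2 FPKM in both h4.v KO salt libraries against 17.8 and 18.7 FPKM in WT salt (log2 fold change −0.54, SE 0.09, limma adjusted p = 0.0508), and ELF3, with 16.7 and 13.9 FPKM in h4.v KO salt against 21.6 and 20.5 FPKM in WT salt (log2 fold change −0.44, SE 0.10, limma adjusted p = 0.0998). Neither gene had overlapping groups. LUX lay close to the threshold, and it was called when genes under a mean of 5 FPKM were left out (limma adjusted p = 0.0451) or when loci had to sit at least 80% inside a gene (limma adjusted p = 0.0454). The PRR genes were close together, with log2 fold changes of −0.11 for PRR95, −0.19 for PRR37, −0.17 for PRR1 and, with the shared-locus library missing, −0.08 for PRR59. FKF1 differed by 0.11.

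Unstressed h4.v KO seedlings were also set against WT seedlings under salt, since the series compares the mutant at rest with the stressed WT. The study described a likeness of these states over the genes it found changed in h4.v KO. In the fit used here, 0 of 6 members passed the cut-offs of the study in h4.v KO against WT. For PRR95, PRR37 and LUX the h4.v KO seedlings were unlike WT salt seedlings, with 3 of 6 members called (2 higher and 1 lower) beside 41.8% of all genes (22.5% higher and 19.3% lower). PRR95 had 32.9 and 34.7 FPKM in h4.v KO, against 3.44 and 3.66 FPKM in WT salt (log2 fold change 2.94, SE 0.15, limma adjusted p = 6.29e-05). PRR37 had 8.35 and 9.67 FPKM in h4.v KO, against 2.71 and 2.64 FPKM in WT salt (1.44, SE 0.22, limma adjusted p = 0.00377). LUX had 6.09 and 5.34 FPKM in h4.v KO, against 17.8 and 18.7 FPKM in WT salt (−1.52, SE 0.09, limma adjusted p = 0.000109). ELF3 was not called, with 21.7 and 22.4 FPKM in h4.v KO and 21.6 and 20.5 FPKM in WT salt. The difference of ELF3 was 0.06 on the log2 scale (SE 0.10, limma adjusted p = 0.671), a difference smaller than its error. PRR1 (−0.17, limma adjusted p = 0.361) and FKF1 (0.28, limma adjusted p = 0.104) were not called either. PRR59 had 32.1 and 31.5 FPKM in h4.v KO, against 16.1 and 16.4 FPKM in WT salt, and the fit with WT replicate 2 missing called it higher (0.93, SE 0.10, limma adjusted p = 0.00167). The 3 comparisons of unstressed h4.v KO, WT salt and WT seedlings share libraries, so their values are not independent of each other.

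The interaction term asks whether the salt difference itself was unlike in h4.v KO and WT. ELF3 and LUX were called, 2 of 6 members and both lower, beside 26.7% of all genes (10.9% higher and 15.8% lower). For ELF3 the salt difference was −0.50 in h4.v KO and 1.01 in WT, and the interaction was −1.51 (SE 0.15, limma adjusted p = 0.0012). ELF3 thus fell with salt in h4.v KO and rose with salt in WT. For LUX the salt difference was 0.98 in h4.v KO and 1.93 in WT, the same direction but a smaller rise in h4.v KO (interaction −0.95, SE 0.13, limma adjusted p = 0.00458). Scaling by the median of gene ratios moved the median interaction of all genes by 0.18, and the share of calls with a positive term was 40.8% as deposited and 59.5% after scaling. The terms for ELF3 (−1.63 to −1.31) and LUX (−1.06 to −0.77) kept their sign and an adjusted p under 0.05 in all 18 alternatives, scaling included.

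For the PRR genes the interaction was not called. PRR95 had a term of −0.72 (SE 0.22, limma adjusted p = 0.0569) and was called without h4.v KO salt replicate 2 (−0.89, limma adjusted p = 0.0383). PRR37 had a term of 0.54 (SE 0.32, limma adjusted p = 0.256) and was called without WT replicate 2 (0.88, limma adjusted p = 0.0414). PRR1 (0.25, limma adjusted p = 0.388), FKF1 (0.32, limma adjusted p = 0.218) and PRR59 with its shared-locus library missing (−0.35, limma adjusted p = 0.161) were not called. A miss of the threshold does not show that the salt difference of these genes was alike in the genotypes.

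The order of the 4 seedling groups thus differed by gene. LUX ran from WT salt at the top through h4.v KO salt and h4.v KO to WT, and the step between WT salt and h4.v KO salt missed the threshold. ELF3 was highest in h4.v KO and WT salt, which were not distinguishable, then lower in h4.v KO salt and lowest in WT, and its step between WT salt and h4.v KO salt missed the threshold as well (limma adjusted p = 0.0998). The step of ELF3 between h4.v KO salt and WT crosses genotype and treatment and was not tested. PRR95 ran from h4.v KO through WT to the 2 salt groups, and PRR37 from WT through h4.v KO to the 2 salt groups, which for both genes did not differ beyond their spread. Over the 8 seedling libraries the highest value was 12.6 times the lowest for PRR95, 9.77 times for PRR37 and 4.7 times for LUX. The same ratio was 2.25 for ELF3, 1.72 for FKF1 and 1.49 for PRR1, and 2.26 for PRR59 over the 7 libraries with no shared locus.

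A ratio of 2 members within a library does not depend on how the library was scaled. The ratio of LUX to PRR95 was chosen after the values were seen, so it is a description with no test. It was 4.45 and 3.28 in h4.v KO salt, 0.185 and 0.154 in h4.v KO, 5.18 and 5.11 in WT salt and 0.211 and 0.164 in WT seedlings. The 4 libraries without salt were thus at most 0.211 and the 4 with salt at least 3.28, in either genotype. LUX to PRR37 split the libraries the same way, with 5.02 and 6.0 in h4.v KO salt, 0.73 and 0.553 in h4.v KO, 6.57 and 7.08 in WT salt and 0.207 and 0.327 in WT. Among the libraries without salt, LUX to PRR95 overlapped between the genotypes and LUX to PRR37 did not. PRR1 to PRR95 was 0.422 in both h4.v KO libraries, against 0.926 and 0.852 in WT libraries. Under salt PRR1 to PRR95 overlapped between the genotypes, with 5.34 and 3.73 in h4.v KO salt and 5.33 and 3.89 in WT salt. ELF3 to PRR95 was 0.659 and 0.646 in h4.v KO, against 0.516 and 0.408 in WT.

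**Figure D3:**
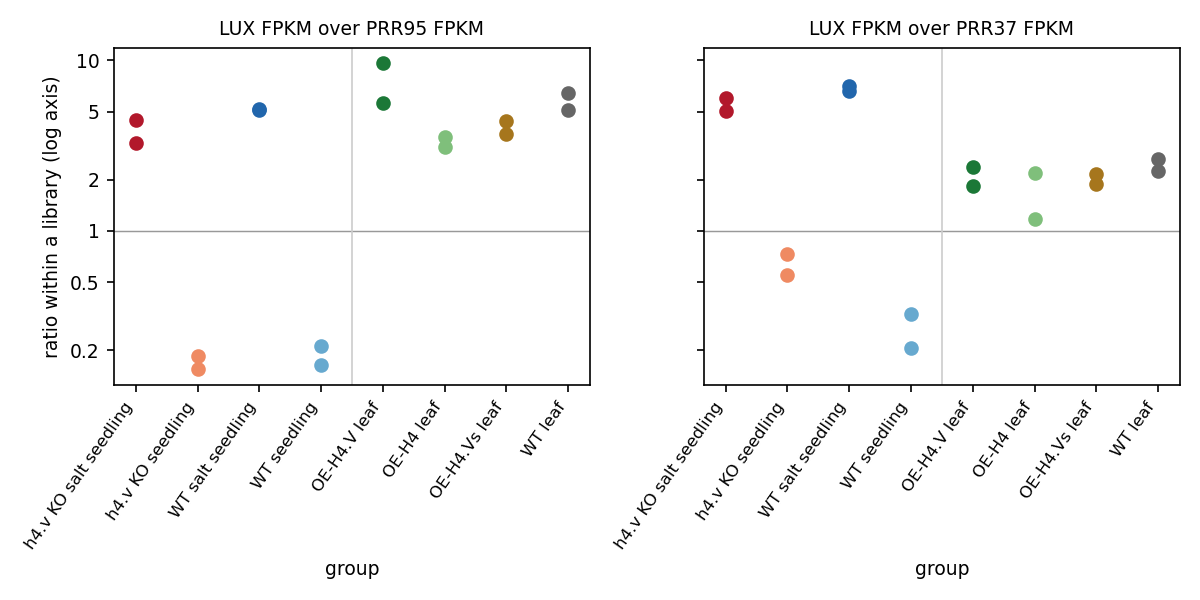
Ratios of FPKM between clock genes within each library, on a log axis. Each point is a library and groups are side by side. LUX to PRR95 lies at 0.211 or below in the 4 seedling libraries without salt, between 3.28 and 5.18 in those with salt, and between 3.09 and 9.63 in the leaf libraries.

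The leaf comparisons asked what overexpression of each histone does in unstressed plants. In all 5 of them 0 of 6 members were called. The background was 6.16% of all genes for OE-H4.V against WT, 22.9% for OE-H4 against WT and 6.94% for OE-H4.Vs against WT. Between the OE groups it was 0.744% for OE-H4.V against OE-H4 and 1.11% for OE-H4.Vs against OE-H4. At an unadjusted p under 0.05, in the order just given, there were 4, 1, 1, 3 and 2 members of 6 by limma. The shares of all genes at that level were 20.8%, 38.5%, 22.3%, 21.7% and 19.6%. The 3 comparisons against WT share its libraries, and those of OE-H4 enter 3 of the 5.

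LUX had 55.9 and 58.9 FPKM in OE-H4.V leaves, 47.8 and 60.1 FPKM in OE-H4 leaves and 45.8 and 54.3 FPKM in OE-H4.Vs leaves, against 76.2 and 78.5 FPKM in WT leaves. Both WT libraries were above all 6 OE libraries, but the share of all genes that separate in this way was not counted. The log2 fold changes against WT were −0.42 for OE-H4.V (SE 0.16, limma adjusted p = 0.185), −0.52 for OE-H4 (SE 0.16, limma adjusted p = 0.0538) and −0.62 for OE-H4.Vs (SE 0.16, limma adjusted p = 0.0657). None of these was called, and in the same order 31.1%, 39.9% and 20.1% of genes differed by at least as much. The OE-H4 difference is near the threshold and was called under 5 of 19 alternatives, among them without OE-H4.Vs replicate 1 (−0.52, limma adjusted p = 0.0498) and without OE-H4.Vs replicate 2 (−0.52, limma adjusted p = 0.0494). Under scaling by the median of gene ratios, which moved the median of all genes by −0.176 in this comparison, LUX (−0.72, limma adjusted p = 0.0298) and ELF3 (−0.63, limma adjusted p = 0.0472) were called lower in OE-H4.

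ELF3 had 37.9 and 29.0 FPKM in OE-H4.V leaves, 25.3 and 28.3 FPKM in OE-H4 leaves and 34.4 and 41.7 FPKM in OE-H4.Vs leaves, against 32.8 and 40.7 FPKM in WT leaves. The OE-H4 libraries were the lowest of the 8 for ELF3, with a log2 fold change of −0.43 (SE 0.19, limma adjusted p = 0.142). FKF1 had 10.7 and 9.58 FPKM in OE-H4.V leaves, 15.4 and 16.8 FPKM in OE-H4 leaves and 11.5 and 12 FPKM in OE-H4.Vs leaves, against 12.6 and 13.8 FPKM in WT leaves. The 4 groups did not overlap for FKF1 in these values, but the share of all genes that separate in this way was not counted. Its Cufflinks interval in leaves reached 10.7% to 31.1% of the value on each side. At the FKF1 locus the intervals of groups next to each other in level overlapped. No FKF1 difference was called in leaves, and its widest was OE-H4.V against OE-H4 (log2 fold change −0.62, SE 0.14, limma adjusted p = 0.0886).

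PRR95 had 10 and 6.11 FPKM in OE-H4.V leaves, 15.5 and 16.9 FPKM in OE-H4 leaves and 12.3 FPKM in both OE-H4.Vs libraries, against 11.9 and 15.4 FPKM in WT leaves. Both OE-H4.V libraries were below all others for PRR95, with −0.72 against WT (SE 0.23, limma adjusted p = 0.139) and −0.95 against OE-H4 (SE 0.23, limma adjusted p = 0.105). PRR59 had 14 and 13.4 FPKM in OE-H4.V leaves, 18.0 and 17.0 FPKM in OE-H4 leaves and 17.5 and 15.9 FPKM in OE-H4.Vs leaves, against 20.9 and 18.3 FPKM in WT leaves. OE-H4.V was lowest for PRR59 as well (log2 fold change against WT −0.48, SE 0.13, limma adjusted p = 0.0933). PRR37 had 23.6 and 32.0 FPKM in OE-H4.V leaves, 40.9 and 27.5 FPKM in OE-H4 leaves and 24.4 and 25.1 FPKM in OE-H4.Vs leaves, against 33.9 and 29.7 FPKM in WT leaves. OE-H4.V and OE-H4 overlapped WT for PRR37, and OE-H4.Vs lay below it (log2 fold change −0.35, SE 0.22, limma adjusted p = 0.422).

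PRR1 had 36.8 and 33.1 FPKM in OE-H4.V leaves, 37.6 FPKM in OE-H4 replicate 2 and 36.1 and 65.2 FPKM in OE-H4.Vs leaves, against 36.0 and 39.6 FPKM in WT leaves. OE-H4.Vs replicate 2 stood above the other 6 usable libraries. The PRR1 locus there had 78.4 FPKM and covered 83.2% of the gene. With OE-H4 replicate 1 missing from the fit, the log2 fold changes of PRR1 against WT were −0.11 for OE-H4.V (SE 0.28, limma adjusted p = 0.878), 0 for OE-H4 (SE 0.34, limma adjusted p = 0.995) and 0.36 for OE-H4.Vs (SE 0.28, limma adjusted p = 0.513). The share of a library's FPKM in loci assigned to a single gene span also varied in leaves. It ran from 72.8% to 85.6% in OE-H4.V, 76.0% to 85.1% in OE-H4, 72.4% to 73.8% in OE-H4.Vs and 71.4% to 86.7% in WT. Its part in these values was not tested.

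**Figure D4:**
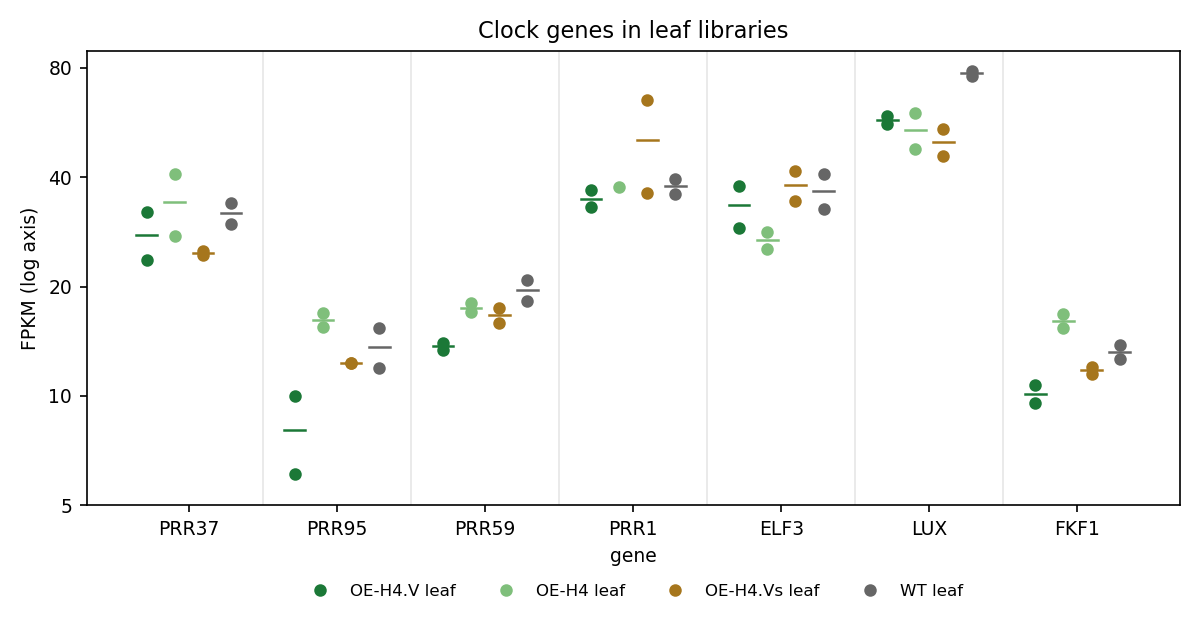
FPKM of the 7 clock genes in the 8 leaf libraries, with the genes along the x axis and FPKM on a log y axis. Each point is a library and the dash is the mean of the 2 libraries of a group, and PRR1 in OE-H4 replicate 1 is not drawn because its locus covers a second gene. LUX is at 76.2 and 78.5 FPKM in WT and at most 60.1 FPKM in the OE libraries, and no LUX difference was called at an adjusted p under 0.05.

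Set against the seedlings, every leaf library was above every seedling library for LUX (lowest leaf 45.8 FPKM, highest seedling 18.7 FPKM), FKF1 (9.58 and 5.57 FPKM), PRR37 (23.6 and 19.9 FPKM) and ELF3 (25.3 and 22.4 FPKM). The same held for PRR1 over its 7 usable leaf libraries (33.1 and 20.7 FPKM). PRR95 and PRR59 had overlapping ranges. Age, growth conditions and genotype differ between the tissues, so no test was made. The share of all genes that separate in the same way was not counted, so nothing particular to clock genes is shown. The spread was narrower in leaves for PRR95, where the highest library was 2.76 times the lowest, and for PRR37 and LUX, where the ratio was 1.73 and 1.71. It was also lower in leaves for ELF3 (1.65) and PRR59 (1.56), but it was 1.97 for PRR1 over 7 leaf libraries and 1.75 for FKF1, against 1.49 and 1.72 in seedlings. LUX to PRR95 in leaves was 5.59 and 9.63 in OE-H4.V leaves, 3.09 and 3.56 in OE-H4, 3.71 and 4.41 in OE-H4.Vs and 6.42 and 5.09 in WT. LUX to PRR37 was 2.37 and 1.84 in OE-H4.V leaves, 1.17 and 2.18 in OE-H4, 1.88 and 2.16 in OE-H4.Vs and 2.25 and 2.64 in WT, below every salt-treated seedling library and above every seedling library without salt.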

How the data were processed

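Per the labels and the study's methods, the authors used Trimmomatic for trimming, HISAT2 for mapping to IRGSP1.0 and Cufflinks 2.2.1 for assembly of each library. The deposited tables hold FPKM with confidence bounds per assembled locus, computed by the authors, without read counts or strand. A gene's FPKM was the sum over loci at least 50% inside its span of FPKM times the share of the span overlapped. Where a locus reached over a neighbouring gene or lay mostly beyond the span, its gene was left out of that tissue's fit. Genes averaging 1 FPKM or more in a tissue's 8 libraries entered 1 limma 3.58.1 fit per tissue (R 4.3.3, trended variance, log2(FPKM + 1), Benjamini-Hochberg over all genes). The fold changes understate changes of low genes. The fit was tested on simulated data. Python 3.11.15, pandas 2.3.3 and matplotlib 3.10.9 were used for the rest.

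All 10 listed genes were to be named. The members and lists were chosen with earlier results of these data known. A list of further light and clock genes, one of photoperiod outputs and one of tissue markers were not analysed here, because their identifiers are not paired with names in the sources used, so the labelled tissues were not checked against markers. A contrast built on LHY and GI was not made. Alternatives covered cut-offs, pseudocount, filters, scaling, locus assignment, samples in the fit, the replicate block and each library left out. Ratios, and the fit with a shared-locus library missing, were added after seeing the data.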

Additional observations from a re-analysis of the deposited data

Results flagged for a closer look

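ELF3 was singled out because its salt difference was unlike in the genotypes. The interaction of h4.v KO and salt was −1.51 on the log2 scale (SE 0.15, limma adjusted p = 0.0012), with both libraries of h4.v KO salt below both of h4.v KO and both libraries of WT salt above both of WT. LUX was singled out by the same test, with an interaction of −0.95 (SE 0.13, limma adjusted p = 0.00458) and higher values under salt in each genotype. With 2 libraries a group, no single library could be tested as standing apart from its group.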

How the results depend on the processing

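Of 66 tested differences of single clock genes, 18 were called, all in seedlings, and 0 of those reversed in the 18 or 19 alternatives run for each. The count of members called was 4 for h4.v KO against WT seedlings, but 0 under the cut-offs of the study, 2 when only the groups compared were fitted, and 1 to 4 with a library left out. Under the study's cut-offs it was 3 in place of 5 for salt in WT, 2 in place of 4 for salt in h4.v KO, and 1 in place of 2 for the interaction. For h4.v KO salt against WT salt it was 1 in place of 0 with a mean of at least 5 FPKM, and 1 with 80% of a locus inside the gene. For OE-H4 against WT leaves it was 2 in place of 0 after median-of-ratios scaling, 1 with 80% of a locus inside the gene, and 0 to 1 with a library left out. Under the replicate block it was 1 for that comparison (LUX, −0.52, limma adjusted p = 0.0456), PRR37 was lost in h4.v KO against WT (limma adjusted p = 0.0609) and the PRR95 interaction was called (limma adjusted p = 0.0358). Replicate differences correlated between groups by −0.015 to 0.021 in seedlings and −0.081 to 0.11 in leaves, so the numbers do not pair the libraries. In PRR37 the plain sum gave −0.33 for h4.v KO against WT, since it adds a short locus inside the gene at full value. Single calls also moved for FKF1 with salt in WT when only those groups were fitted (−0.49, limma adjusted p = 0.0505) and for PRR1 there without WT salt replicate 1 (−0.42, limma adjusted p = 0.0474). Besides those given with the results, the share of calls that were higher moved with scaling by over 10 percentage points in 4 comparisons, to 55.8% from 45% in h4.v KO salt against WT salt, to 47% from 65.9% in OE-H4 against WT, and to 68.4% from 58.4% in OE-H4.Vs against OE-H4. In OE-H4.V against OE-H4 it moved to 73% from 61.9%, and the median of all genes by 0.135. In the other 5 comparisons it moved by less, from 41.5% to 49.6% for salt in h4.v KO and from 54.5% to 47.7% for salt in WT among them. The interaction could not be fitted on fewer than 4 groups. The widest Cufflinks intervals relative to the value were those of FKF1 in both tissues, and the reason was not tested.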
